A study of Homo sapiens with 10 samples.

Results

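The genes described here are 10 death receptors, ligands and adaptors that sit closest to them: FAS, TNFRSF10A, TNFRSF10B, TNFSF10, TNFRSF1A, TNFRSF12A, TNFRSF21, FADD, CASP8 and CFLAR. They were taken by gene symbol, and all 10 were found among the 23426 symbols measured in every sample. RNA was sequenced from 2 breast cancer cell lines, the basal MDA-MB-468 and the luminal ZR75-1, after 6 h in 1 μM PKC412 (midostaurin, a staurosporine derivative that inhibits many kinases) or in its solvent DMSO. The 4 groups were MDA-MB-468 in DMSO (n = 2), MDA-MB-468 in PKC412 (n = 3), ZR75-1 in DMSO (n = 2) and ZR75-1 in PKC412 (n = 3). No further agent or engineered allele was given for any group, and each subtype was represented by 1 line, so line and subtype cannot be told apart. Nothing in the labels says that samples of a group came from separate cultures, so p-values measure the spread between these samples, which may be technical.

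Death receptors are members of the tumour necrosis factor (TNF) receptor superfamily that carry a death domain on their inner side. When a ligand such as TRAIL (the product of TNFSF10) or FAS ligand brings receptors together, the adaptor FADD is recruited and in turn binds pro-caspase-8, which then activates itself, while c-FLIP (the product of CFLAR), a relative of caspase-8, competes for the same complex. In epithelial tumour cells this route feeds the executioner caspases either directly or through the mitochondria.

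Values are FPKM (fragment counts divided by transcript length and by the yield of the library) as the authors deposited them, and differences were tested with limma on log2(FPKM + 1) over 16071 genes with Benjamini-Hochberg adjustment. A log2 difference on that scale understates the change of low genes. The number of reads behind a value is unknown, so the spread between samples is the only measure of precision. The labels of the lines were borne out by their markers as a whole: 9 basal markers summed to between 2463 and 2709 FPKM in MDA-MB-468 samples and to between 23.1 and 32.7 FPKM in ZR75-1 samples, and 9 luminal markers summed to between 163 and 271 FPKM and between 9179 and 11530 FPKM. CDH3, listed as basal, was however higher in ZR75-1. The samples also differed in how FPKM ran along the GC content of genes. The slope, in log2 FPKM relative to the mean of the line per 10 percentage points of GC content, was 0.37 and 0.06 in the MDA-MB-468 DMSO samples and between -0.29 and -0.02 in the PKC412 samples, which do not overlap, whereas in ZR75-1 it was 0.31 and -0.19 in DMSO and between -0.36 and 0.34 in PKC412.

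TNFRSF12A, FADD and TNFRSF1A were the most abundant of the 10 transcripts in all 4 groups and FAS was the least abundant, FPKM being scaled by length. In DMSO-treated MDA-MB-468 cells the mean FPKM was 192.0 ± 4.18 (SD, n = 2) for TNFRSF12A (the receptor of TWEAK, also called Fn14, which has no death domain), 38.6 ± 2.07 for FADD and 26.5 ± 0.262 for TNFRSF1A (TNF receptor 1). These were followed by CFLAR at 14.8 ± 1.84, TNFRSF21 (death receptor 6) at 10.4 ± 2.32, TNFSF10 at 5.825 ± 0.475 and TNFRSF10B (the TRAIL receptor DR5) at 3.92 ± 0.542. The lowest were CASP8 at 2.525 ± 0.925, TNFRSF10A (the TRAIL receptor DR4) at 1.07 ± 0.241 and FAS at 0.123 ± 0.0917 FPKM. In this group no neighbours in the order overlapped, with 2 samples each, the closest being CASP8 (1.87 and 3.18 FPKM) and TNFRSF10B (3.54 and 4.31 FPKM). In DMSO-treated ZR75-1 cells the order of the upper part was not resolved, since the FPKM of TNFRSF12A (85.7 and 115.8), FADD (77.5 and 91.6) and TNFRSF1A (74.5 and 90.5) overlapped. Below these stood CFLAR at 9.80 ± 3.14 and TNFRSF10B at 7.845 ± 2.57, which overlapped, and then TNFSF10 at 3.53 ± 0.674, TNFRSF10A at 2.66 ± 1.43, CASP8 at 1.821 ± 1.435 and TNFRSF21 at 1.21 ± 0.298, each overlapping with the next. FAS was again lowest, at 0.190 ± 0.174 FPKM. The plot of FPKM by sample shows all 10 genes.

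**Figure D1:**
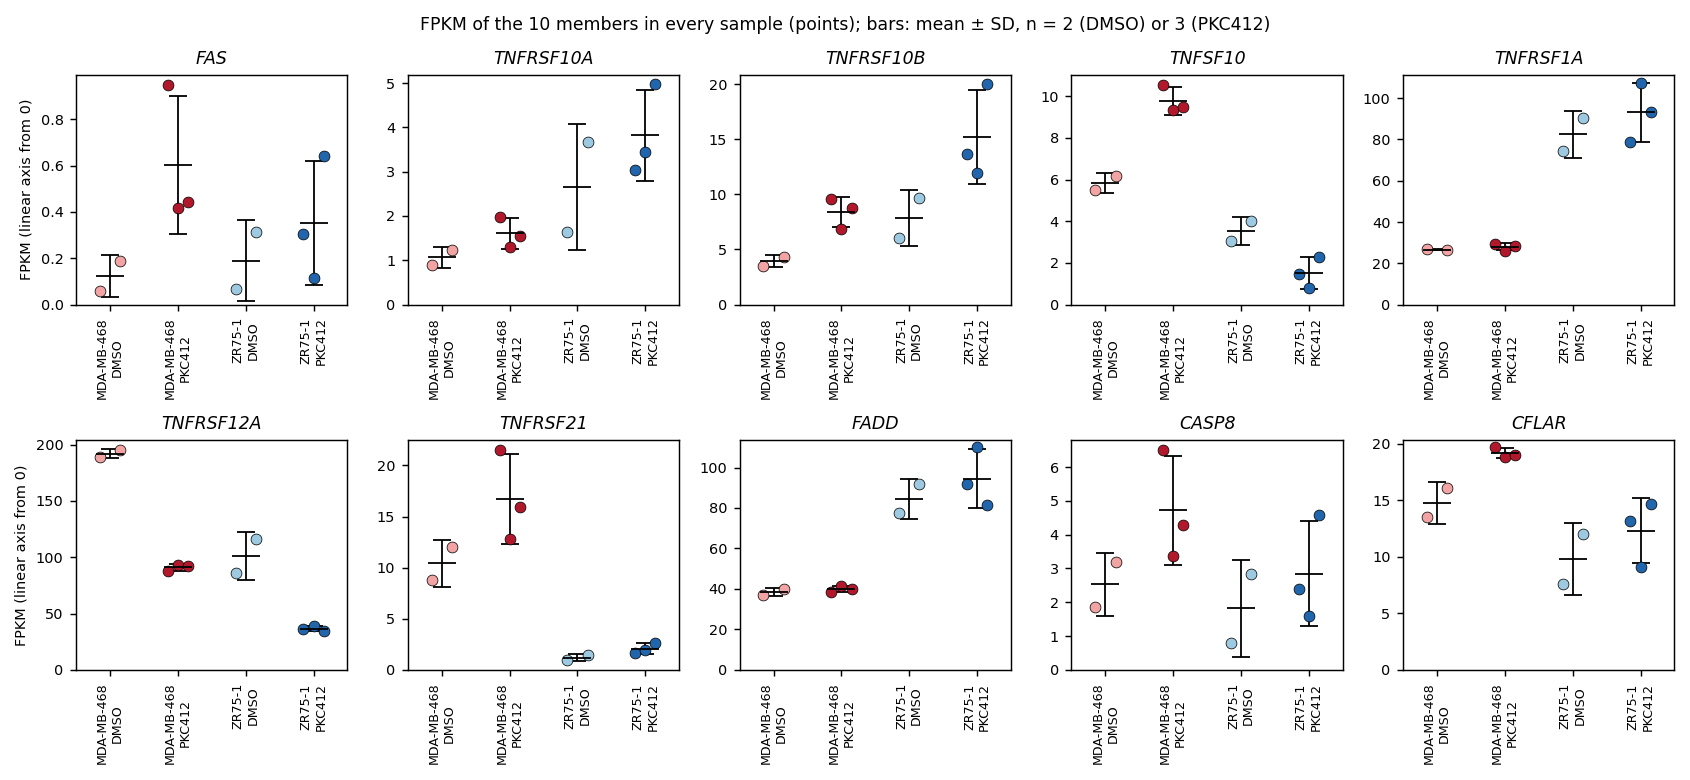
FPKM of the 10 genes in each of the 10 samples (points) on linear axes that start at 0 and differ between panels, with the mean and SD of each group (n = 2 in DMSO, n = 3 in PKC412). TNFRSF12A was lower in every PKC412 sample than in every DMSO sample of the same line, TNFSF10 moved up in MDA-MB-468 and down in ZR75-1, and TNFRSF1A, FADD and TNFRSF21 separated the lines.

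What PKC412 did to these transcripts was compared within each line. The gene that fell in both lines was TNFRSF12A. In MDA-MB-468 its FPKM was 189 and 195 in DMSO against 87.5, 93.2 and 92.2 in PKC412, a ratio of means of 0.474, and in ZR75-1 it was 85.7 and 115.8 against 36.2, 38.7 and 34.9, a ratio of 0.363. Every PKC412 sample lay below every DMSO sample of its line, which 3.49% of all genes tested did in both lines. On the log2 scale TNFRSF12A fell by 1.07 (SE 0.13, limma adjusted p = 0.0086) in MDA-MB-468 and by 1.42 (SE 0.13, adjusted p = 0.0030) in ZR75-1. It was the only one of the 10 genes past the threshold in either line, against 1.26% and 0.946% of all genes, MDA-MB-468 named before ZR75-1. Between the lines the difference in this fall, 0.35 with a 95% interval from -0.07 to 0.78, was not past the threshold (adjusted p = 0.83).

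The call on TNFRSF12A in MDA-MB-468 was lost when either of its DMSO samples was left out (adjusted p = 0.083 without replicate 1 and 0.070 without replicate 2, with falls of 1.09 and 1.05) and when FPKM were adjusted for GC content and length (a fall of 0.67, adjusted p = 0.18). The call in ZR75-1 was lost when that line was fitted alone (adjusted p = 0.22). The longest coding transcript of TNFRSF12A has the highest GC content of the 10 genes, 61.7%. In MDA-MB-468 the GC slopes given above went with the agent. The adjustment there cannot tell an effect of GC content from a response to PKC412, and neither was tested as the cause. The same limit holds for every adjusted value of that line. After the adjustment the FPKM of TNFRSF12A was still lower in each PKC412 sample. It was 146 and 180 against 113, 91.4 and 102 in MDA-MB-468. In ZR75-1 it was 70.4 and 122 against 36.4, 32.6 and 47.7. TWEAK, the ligand of TNFRSF12A encoded by TNFSF12, was near 3 FPKM throughout, between 3.04 and 3.62 in MDA-MB-468 and between 2.23 and 3.63 in ZR75-1, with log2 differences of 0.04 and -0.01 in PKC412. In bulk RNA, fewer cells that express a gene and less of its RNA per cell cannot be told apart.

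TNFSF10, the TRAIL ligand, differed in direction between the lines. In MDA-MB-468 its FPKM was 5.49 and 6.16 in DMSO and 10.5, 9.35 and 9.46 in PKC412, while in ZR75-1 it was 3.05 and 4.01 in DMSO and 1.46, 0.775 and 2.30 in PKC412. The groups did not overlap in either line, upward in the basal line and downward in the luminal one, which 0.597% of all genes tested did. By limma neither difference was past the threshold, with a log2 difference of 0.66 (SE 0.25, adjusted p = 0.27) in MDA-MB-468 and -0.89 (SE 0.25, adjusted p = 0.24) in ZR75-1. The difference between the 2 effects was 1.55 on the log2 scale (95% interval 0.73 to 2.36, unadjusted p = 0.0023) and missed the threshold over all genes (adjusted p = 0.21). With FPKM adjusted for GC content and length the difference between the effects was 1.21 (adjusted p = 0.045) and that in ZR75-1 was -0.997 (adjusted p = 0.014), both past the threshold, while in MDA-MB-468 it was 0.22 (adjusted p = 0.43). The adjusted FPKM of TNFSF10 was 7.98 and 6.44 in DMSO against 8.23, 8.86 and 8.41 in PKC412 in MDA-MB-468, a much narrower gap than in the deposited values, and 4.39 and 3.05 against 1.23, 1.17 and 1.66 in ZR75-1.

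TNFRSF10B and TNFRSF10A, the receptors of that ligand with a death domain, had higher means in PKC412 in both lines, though not past the threshold in the values as deposited. TNFRSF10B stood at 3.54 and 4.31 FPKM in DMSO and at 9.53, 6.88 and 8.77 in PKC412 in MDA-MB-468. In ZR75-1 it stood at 6.03 and 9.66 in DMSO and at 13.7, 11.95 and 20.0 in PKC412. The samples did not overlap in either line, as was so upward in both lines for 6.53% of all genes, and the ratios of means were 2.14 and 1.94. With limma the log2 differences were 0.93 (SE 0.26, adjusted p = 0.18) and 0.88 (SE 0.26, adjusted p = 0.27). After the adjustment for GC content and length, TNFRSF10B rose in both lines, by 0.63 (adjusted p = 0.0071) and 0.61 (adjusted p = 0.0087), and its samples lay closer together, with FPKM of 4.46 and 4.59 against 7.71, 7.17 and 7.76 in MDA-MB-468 and 8.19 and 9.08 against 13.1, 13.6 and 14.5 in ZR75-1. Under every other alternative the difference of TNFRSF10B stayed short of the threshold in both lines.

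TNFRSF10A, the second TRAIL receptor, showed smaller differences. Its FPKM was 0.896 and 1.24 in DMSO against 1.99, 1.29 and 1.54 in PKC412 in MDA-MB-468, where the groups did not overlap, and 1.65 and 3.67 against 3.03, 3.45 and 4.98 in ZR75-1, where they did. The log2 differences were 0.33 (adjusted p = 0.49) and 0.43 (adjusted p = 0.61). The decoy receptor TNFRSF10C, which binds TRAIL and lacks a death domain, was at 2.74 and 2.46 FPKM in DMSO and at 2.32, 2.41 and 2.59 in PKC412 in ZR75-1 and at or under 0.102 FPKM in every MDA-MB-468 sample. The other decoy, TNFRSF10D, lay between 0.223 and 0.562 FPKM in all 10 samples. TNFRSF11B (osteoprotegerin, a soluble receptor that can bind TRAIL) was 0.0609 and 0.0789 FPKM in DMSO and 0.900, 0.376 and 0.738 in PKC412 in MDA-MB-468, with an adjusted p of 0.18 in limma.

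**Figure D2:**
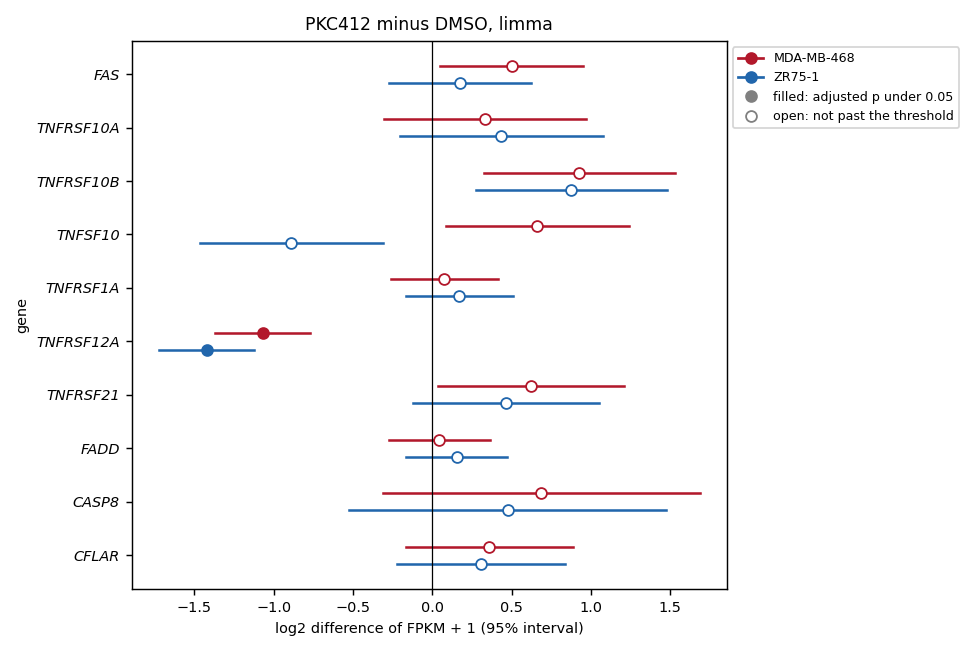
Difference between PKC412 and DMSO in log2(FPKM + 1) for each of the 10 genes with its 95% interval from limma, in MDA-MB-468 (red) and ZR75-1 (blue); filled points have an adjusted p under 0.05. Only TNFRSF12A is filled, in both lines and on the lower side, and TNFSF10 is the gene whose intervals lie on opposite sides of 0.

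The 3 remaining receptors did not pass the threshold. FAS was barely detected, with 0.0584 and 0.188 FPKM in DMSO against 0.946, 0.418 and 0.443 in PKC412 in MDA-MB-468, and 0.067 and 0.313 against 0.306, 0.113 and 0.641 in ZR75-1. Its ratio of means in MDA-MB-468, 4.89, was the only one of the 10 that reached the study's 3-fold mark, which 7.21% of 14955 genes reached in that line, and in ZR75-1 none of the 10 did, against 4.09% of 14587 genes. The longest coding transcript of FAS has the lowest GC content of the 10 genes, 39.1%. With FPKM adjusted for GC content and length the ratio of FAS in MDA-MB-468 was 3.32. FAS did not reach the mark with a pseudocount of 1 on both means, and in ZR75-1 1, 2 and 1 of the 10 reached it without DMSO replicate 1, DMSO replicate 2 and PKC412 replicate 3. The log2 difference of FAS in MDA-MB-468 was 0.50 (SE 0.20, limma adjusted p = 0.28), and FASLG, its ligand, was 0.0124 and 0.0119 FPKM in the DMSO samples of MDA-MB-468 and 0 in the other 8 samples. TNFRSF21 was 8.79 and 12.1 FPKM in DMSO against 21.5, 12.8 and 15.97 in PKC412 in MDA-MB-468, and 0.995 and 1.42 against 1.62, 1.90 and 2.65 in ZR75-1, so that its samples did not overlap in either line. The adjusted p of TNFRSF21 was 0.29 and 0.55. TNFRSF1A stood at 26.7 and 26.3 FPKM against 29.4, 26.1 and 28.6 in MDA-MB-468 and at 74.5 and 90.5 against 78.8, 107.3 and 93.3 in ZR75-1, with overlapping samples and log2 differences of 0.07 (95% interval -0.26 to 0.41) and 0.17 (-0.17 to 0.51).

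Among the adaptors, FADD showed the narrowest intervals. FADD was 37.1 and 40.1 FPKM in DMSO against 38.4, 41.3 and 39.7 in PKC412 in MDA-MB-468, and 77.5 and 91.6 against 92.0, 110.0 and 81.6 in ZR75-1. The 95% intervals of its log2 difference, -0.28 to 0.36 and -0.17 to 0.47, reached no further than those bounds. In MDA-MB-468 the log2 differences of FADD and TNFRSF1A were -0.11 and -0.07 after median-ratio rescaling, which moves all genes of a sample together. CASP8, the initiator caspase, was 1.87 and 3.18 FPKM against 6.498, 3.38 and 4.28 in MDA-MB-468 and 0.806 and 2.84 against 2.38, 1.59 and 4.57 in ZR75-1, with log2 differences of 0.69 (SE 0.43) and 0.47 (SE 0.43). The value of CASP8 in ZR75-1 was -0.069 without DMSO replicate 1 and 1.02 without DMSO replicate 2. CFLAR was 13.5 and 16.1 FPKM against 19.7, 18.8 and 19.0 in MDA-MB-468 and 7.58 and 12.03 against 13.2, 9.11 and 14.6 in ZR75-1. Its difference in MDA-MB-468, 0.36 on the log2 scale (adjusted p = 0.39), was -0.01 after the adjustment for GC content and length, CFLAR having a GC content of 44.1%.

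Counted over the 10 genes, 7 were higher in every PKC412 sample than in every DMSO sample of MDA-MB-468 (FAS, TNFRSF10A, TNFRSF10B, TNFSF10, TNFRSF21, CASP8 and CFLAR) and 1, TNFRSF12A, was lower. Of all genes tested, 39.6% were higher and 16.3% lower in this sense. After the adjustment for GC content and length CASP8 and CFLAR overlapped, while TNFRSF1A and FADD were higher in every PKC412 sample, so membership of the 7 depends on it. In ZR75-1, 2 of the 10 were higher in every PKC412 sample (TNFRSF10B and TNFRSF21) against 14.8% of all genes, and 2 were lower (TNFSF10 and TNFRSF12A) against 6.98%. The median log2 difference of the 10 genes was 0.43 in MDA-MB-468 beside 0.11 over all genes, and 0.24 in ZR75-1 beside 0.07. All genes include those with a group mean just above 0.1 FPKM, whose differences this scale understates. The medians are therefore not like for like. After median-ratio rescaling the median over all genes in MDA-MB-468 was 0.03. The rescaled median of the 10 was not taken, so 0.43 is not to be set against 0.03. At an unadjusted p under 0.05, limma counted 5 of the 10 in MDA-MB-468 (16.4% of all genes) and 3 in ZR75-1 (11.2%). None of the 10 differed in effect between the lines past the threshold of limma (0.268% of all genes did), and 1, TNFSF10, did at an unadjusted p under 0.05 (7.05%).

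**Figure D3:**
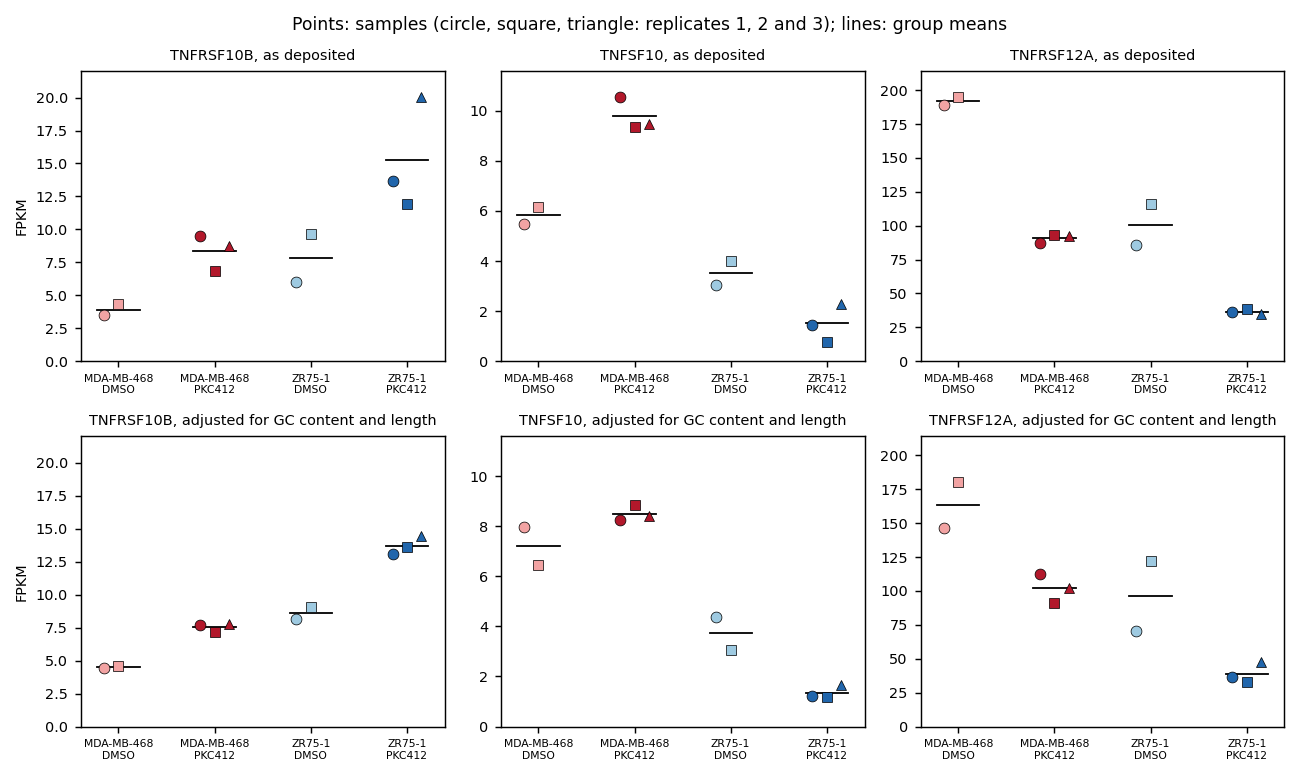
FPKM of TNFRSF10B, TNFSF10 and TNFRSF12A in each sample as deposited (upper row) and after adjustment for GC content and length (lower row), with group means as lines and replicates 1, 2 and 3 as circles, squares and triangles. The adjusted values of TNFRSF10B lie closer together within each group, between 7.17 and 7.76 FPKM in PKC412-treated MDA-MB-468 cells, and the gap of TNFSF10 in MDA-MB-468 narrows.

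More of these genes differed between the lines than between the agents, as was so over all genes. Between the agents 1.26% of all genes passed the threshold in MDA-MB-468 and 0.946% in ZR75-1. In DMSO, 5 of the 10 genes passed the threshold between MDA-MB-468 and ZR75-1, against 42.4% of all genes tested, and in PKC412 8 of the 10 did, against 58.6%. The latter count was 5 without MDA-MB-468 PKC412 replicate 2. With 10 genes, nothing was read from how far these counts lie from the background. In 4 genes all 5 samples of a line stayed apart from all 5 of the other (47.8% of all genes): TNFSF10 and TNFRSF21 were higher in MDA-MB-468, and TNFRSF1A and FADD were higher in ZR75-1. The DMSO and PKC412 comparisons use different samples but share 1 estimate of the spread, so their calls are not independent. The GC and length adjustment was made within each line, so no difference between the lines was checked with it.

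TNFRSF21 showed the widest gap. Its FPKM lay between 8.79 and 21.5 in MDA-MB-468 samples and between 0.995 and 2.65 in ZR75-1 samples, a ratio of means of 8.65 in DMSO and 8.14 in PKC412. The log2 difference was 2.36 (SE 0.28, limma adjusted p = 0.00024) in DMSO and 2.52 (SE 0.23, adjusted p = 3.3e-05) in PKC412. TNFRSF12A was also higher in MDA-MB-468, by 0.94 (SE 0.14, adjusted p = 0.00096) in DMSO and 1.29 (SE 0.12, adjusted p = 3.3e-05) in PKC412, so that the PKC412 level in MDA-MB-468 (87.5 to 93.2 FPKM) was in the range of the DMSO level in ZR75-1 (85.7 to 115.8 FPKM). TNFSF10 had a ratio of means of 1.65 in DMSO, with a log2 difference of 0.60 that was not past the threshold (adjusted p = 0.12, and 0.037 or 0.0495 without ZR75-1 PKC412 replicate 2 or 3), and of 6.475 in PKC412, with a log2 difference of 2.15 (SE 0.22, adjusted p = 7.9e-05).

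TNFRSF1A and FADD, the receptor of TNF and the adaptor recruited by the receptors of TRAIL and FAS ligand, were both higher in ZR75-1. TNFRSF1A lay between 26.1 and 29.4 FPKM in MDA-MB-468 and between 74.5 and 107.3 FPKM in ZR75-1, a ratio of 3.11 in DMSO and 3.33 in PKC412. FADD lay between 37.1 and 41.3 FPKM in MDA-MB-468 and between 77.5 and 110.0 FPKM in ZR75-1, a ratio of 2.19 and 2.37. The adjusted p values of these 4 differences in limma ran from 1.4e-05 to 0.00055, and both genes kept their calls in all 17 other settings that apply to the line differences.

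The TRAIL receptors were likewise higher in ZR75-1, with less certainty. TNFRSF10B differed by -0.82 (SE 0.29, adjusted p = 0.0495) in DMSO and by -0.77 (SE 0.23, adjusted p = 0.022) in PKC412, MDA-MB-468 minus ZR75-1 on the log2 scale. The DMSO call on TNFRSF10B held in 7 of 17 other settings. It was lost without MDA-MB-468 DMSO replicate 1 (adjusted p = 0.19) or 2 (0.10), without ZR75-1 DMSO replicate 2 (0.24), without any of the MDA-MB-468 PKC412 replicates (0.058 to 0.076) and without ZR75-1 PKC412 replicate 1 (0.072), and the PKC412 call was lost without MDA-MB-468 PKC412 replicate 2 (0.072) or ZR75-1 PKC412 replicate 3 (0.056). TNFRSF10A differed by -0.77 (adjusted p = 0.075, and 0.018 without ZR75-1 DMSO replicate 1 or with median-ratio rescaling) in DMSO and by -0.87 (SE 0.25, adjusted p = 0.016) in PKC412, the latter not past the threshold without MDA-MB-468 PKC412 replicate 2 (adjusted p = 0.054).

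CFLAR was higher in MDA-MB-468 in PKC412, by 0.62 (SE 0.21, adjusted p = 0.030), with FPKM of 18.8 to 19.7 against 9.11 to 14.6. The call on CFLAR was lost in 6 of 17 other settings, among them the omission of any MDA-MB-468 PKC412 replicate (adjusted p from 0.063 to 0.080) and of ZR75-1 PKC412 replicate 1 (0.051) or 2 (0.079). In DMSO the same gene differed by 0.57 (adjusted p = 0.10, and 0.034 without ZR75-1 DMSO replicate 2). CASP8 and FAS overlapped between the lines in both agents, and their log2 differences, 0.40 and -0.08 in DMSO and 0.61 and 0.25 in PKC412, were not past the threshold.

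**Figure D4:**
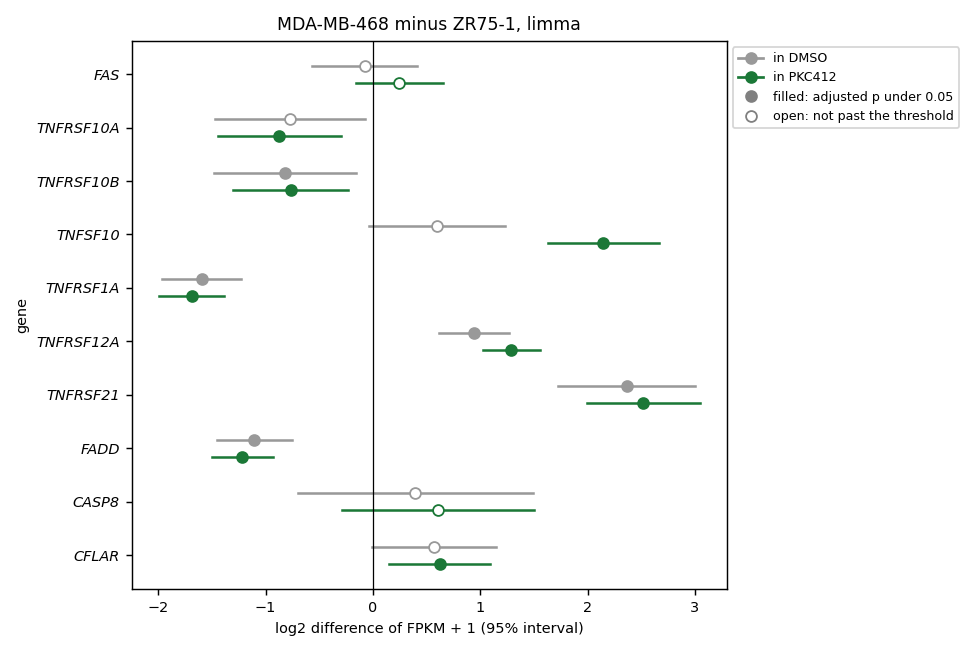
Difference between MDA-MB-468 and ZR75-1 in log2(FPKM + 1) for each of the 10 genes with its 95% interval from limma, in DMSO (grey) and PKC412 (green); filled points have an adjusted p under 0.05. TNFRSF21 and TNFRSF12A lie above 0 and TNFRSF1A, FADD and TNFRSF10B below 0 with filled points in both agents, and TNFSF10 moves from 0.60 in DMSO to 2.15 in PKC412.

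The sequence before the start of the 4 genes whose samples never overlapped between the lines is printed to show DNA upstream of them. The bases nearest the start are left out except in TNFRSF21, so these are not whole promoters. The windows are the 250 bases before the RefSeq start on GRCh38.p14, cut back to what lies outside the annotated gene (GENCODE 29), 5′ to 3′ on the strand of the gene, and they were matched by symbol for 7 of the 10 genes, TNFRSF10A, TNFRSF10B and TNFRSF12A being without an entry. Capitals mark matches, on either strand, to 9 motifs: STAT (TTCNNNGAA), the core of the interferon-stimulated response element or ISRE (GAAA and GAAA with 2 bases between), FOXO (GTAAACA), AP-1 (TGANTCA), CRE (TGACGTCA), the GC box (GGGCGG), TEAD (GGAATG), NF-kappaB (GGG and TTTCC with 2 bases between) and the TATA box (TATAAA). The windows are TNFSF10 at chr3:172523508-172523680 (minus strand), TNFRSF21 at chr6:47309906-47310155 (minus strand), TNFRSF1A at chr12:6342115-6342326 (minus strand) and FADD at chr11:70203046-70203162 (plus strand).
TNFSF10: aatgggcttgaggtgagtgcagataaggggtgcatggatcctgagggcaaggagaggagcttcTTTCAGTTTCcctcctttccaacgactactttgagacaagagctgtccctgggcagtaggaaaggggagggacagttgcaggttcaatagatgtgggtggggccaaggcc
TNFRSF21: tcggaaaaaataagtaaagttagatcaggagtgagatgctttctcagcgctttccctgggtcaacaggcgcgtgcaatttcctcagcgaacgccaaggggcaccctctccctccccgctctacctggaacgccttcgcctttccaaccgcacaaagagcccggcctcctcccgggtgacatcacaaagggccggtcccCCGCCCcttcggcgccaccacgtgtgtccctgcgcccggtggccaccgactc
TNFRSF1A: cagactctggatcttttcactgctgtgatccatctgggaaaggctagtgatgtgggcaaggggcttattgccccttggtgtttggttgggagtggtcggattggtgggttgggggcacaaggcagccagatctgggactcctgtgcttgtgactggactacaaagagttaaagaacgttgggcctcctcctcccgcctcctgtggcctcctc
FADD: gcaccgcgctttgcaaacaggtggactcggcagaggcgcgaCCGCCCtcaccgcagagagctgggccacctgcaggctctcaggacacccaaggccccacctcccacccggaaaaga

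The window of TNFSF10 holds an ISRE core, found as TTTCAGTTTC from 187 to 178 bases before the start, which 2.11% of 27305 promoters hold on either strand in the same stretch of 173 bases. The printed windows of TNFRSF21 and FADD each hold a GC box, as 42.3% of promoters do in the 250 bases shown for TNFRSF21 and 19.7% in the 117 bases shown for FADD, and that of TNFRSF1A holds none of the 9 motifs. In the bases left out, TNFSF10 has a TATA box from 31 to 26 bases before the start. FADD has a second GC box there, from 77 to 72 bases before the start. In the full 250 bases 11.1% of promoters hold a TATA box and 42.3% a GC box. A match is a description of letters and was not set against any binding data.

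The wider pathway was read from a list of other ligands, receptors, adaptors and ubiquitin enzymes, caspase-10, BID and the necroptosis genes, of which 46 were in the files and 42 were tested. In MDA-MB-468, 4 of the 42 passed the threshold with PKC412, 3 higher and 1 lower, against 0.691% and 0.566% of all genes. TNF, the ligand of TNFRSF1A, was 0.0726 and 0.0322 FPKM in DMSO against 2.02, 1.21 and 1.545 in PKC412 and rose by 1.29 (SE 0.20, limma adjusted p = 0.027). TNFAIP3 (A20, a ubiquitin-editing enzyme that limits NF-kappaB signalling from these receptors) was 0.163 and 0.285 FPKM against 6.41, 3.09 and 4.295 and rose by 2.15 (SE 0.34, adjusted p = 0.029). NGFR, a receptor with a death domain, rose by 0.36 (adjusted p = 0.016) from 0.199 and 0.145 to 0.549, 0.457 and 0.504 FPKM, and TNFSF9, the ligand of 4-1BB, fell by 0.81 (adjusted p = 0.0498) from 4.10 and 4.34 to 1.78, 2.34 and 1.818 FPKM.

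These 4 calls in MDA-MB-468 rested on few samples. Each was lost without DMSO replicate 1 or 2 of that line (adjusted p from 0.079 for NGFR to 0.29 for TNFSF9) and without its PKC412 replicate 1 or 3 (0.053 for NGFR to 0.20 for TNFSF9). TNF and TNFAIP3 were also lost without ZR75-1 PKC412 replicate 1 (0.065 and 0.072), TNFAIP3 without either ZR75-1 DMSO replicate (0.052 each), and TNFSF9 without any of the 5 ZR75-1 samples (0.054 to 0.10). With the line fitted alone NGFR, TNFAIP3 and TNFSF9 had adjusted p values of 0.12, 0.054 and 0.12. In ZR75-1 none of the 42 passed the threshold by limma, and 7 did at an unadjusted p under 0.05 (11.2% of all genes), against 14 of the 42 in MDA-MB-468 (16.4%). TNF in ZR75-1 was 0.836 and 1.775 FPKM in DMSO against 1.62, 1.88 and 2.125 in PKC412, and TNFAIP3 was 0.282 and 0.707 against 2.48, 1.72 and 4.58 FPKM, without overlap (log2 difference 1.34, adjusted p = 0.19). No gene of the list differed in its effect between the lines past the threshold of limma, and 9 did at an unadjusted p under 0.05, where 0.268% and 7.05% of all genes did. Between the lines themselves, 17 of the 42 passed in DMSO (8 higher and 9 lower in MDA-MB-468) and 24 in PKC412 (14 higher and 10 lower), beside the backgrounds of 42.4% and 58.6%.

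By the ratio of means, 10 of 37 pathway genes above 0.1 FPKM were at least 3-fold higher with PKC412 in MDA-MB-468 (6.14% of all genes were), namely TNF, LTB, TNFSF15, TNFRSF11B, LTBR, TNFRSF19, BIRC2, BIRC3, TNFAIP3 and CASP8AP2, and none was 3-fold lower. LTBR overlapped between the agents, with 0.246 and 0.641 FPKM in DMSO against 1.52, 0.233 and 3.51 in PKC412, and its ratio of 3.96 was 1.98 without PKC412 replicate 3. TNFSF15, BIRC2 and CASP8AP2 also went under the mark when 1 sample was left out (lowest ratios of 2.83 without PKC412 replicate 1 and of 2.44 and 2.81 without DMSO replicate 1), and with a pseudocount of 1 on both means only BIRC3 and TNFAIP3 of the 10 reached it. In ZR75-1 it was 1 of 39, TNFAIP3 (3.15% of all genes), at a ratio of 5.92 that was 2.63 with that pseudocount. Without PKC412 replicate 1 the number in MDA-MB-468 was 6, and in ZR75-1 it was 5 without DMSO replicate 2 and 2 without DMSO replicate 1 or PKC412 replicate 1 or 2. BIRC2 and BIRC3, the ubiquitin ligases cIAP1 and cIAP2 that hold RIPK1 in the survival complex of TNF receptor 1, were examples with wide spread. BIRC3 was 1.13 and 1.49 FPKM in DMSO against 8.20, 5.20 and 6.255 in PKC412 in MDA-MB-468 (limma adjusted p = 0.29), and 3.99 and 6.165 against 9.55, 1.18 and 13.3 in ZR75-1. Of the 10 at the mark in MDA-MB-468, BIRC3, BIRC2, CASP8AP2, TNFSF15, TNFRSF11B and TNFRSF19 had a GC content between 34.8% and 43.2%. That of TNFAIP3, TNF, LTBR and LTB lay between 49.5% and 64.4%. The part of the GC slopes of the MDA-MB-468 samples in these ratios was not tested.

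**Figure D5:**
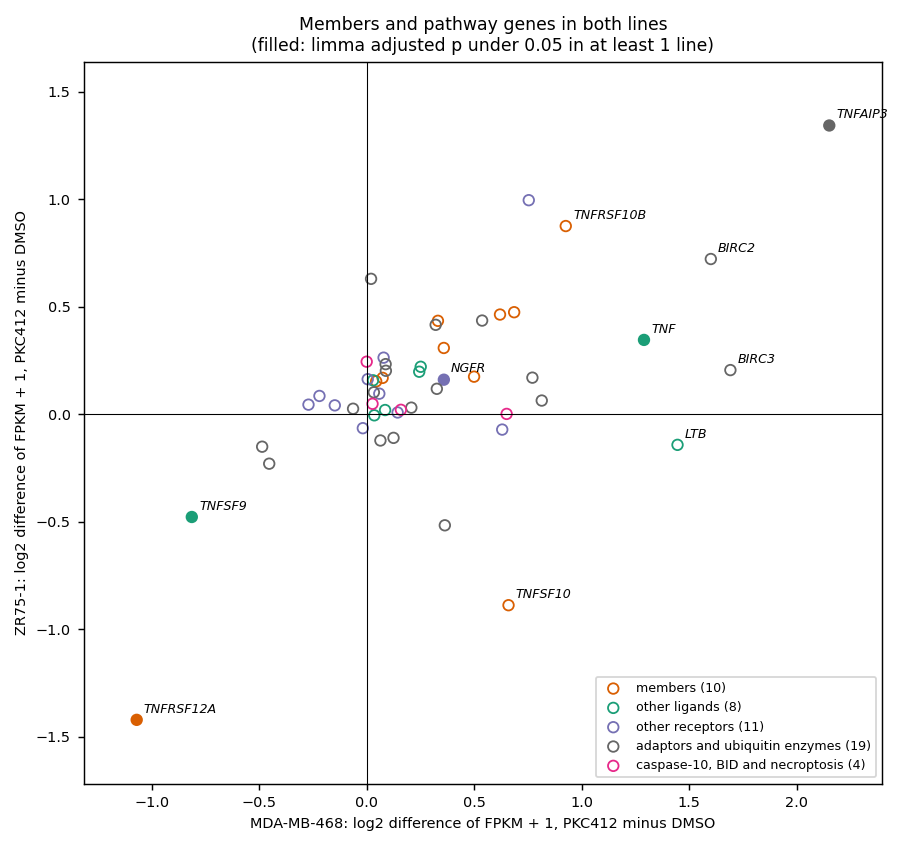
Difference between PKC412 and DMSO in log2(FPKM + 1) in MDA-MB-468 (x axis) and ZR75-1 (y axis) for the 10 genes and the 42 pathway genes tested; filled points have a limma adjusted p under 0.05 in at least 1 line. TNFRSF12A lies at the lower left (-1.07 and -1.42), TNFAIP3 at the upper right (2.15 and 1.34), and TNFSF10 at the lower right (0.66 and -0.89).

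Among the 5 genes whose values ran most like those of TNFRSF12A over the 10 samples, after the mean of each line was subtracted on the log2 scale, were PRSS22 (r = 0.988), PRR15L (0.983), VGLL1 (0.982) and ADM (0.974), out of 12343 genes above 1 FPKM in at least 1 group. VGLL1, a cofactor of TEAD transcription factors, had a mean FPKM of 281 ± 0.704 (SD, n = 2) in DMSO and 164 ± 7.73 (n = 3) in PKC412 in MDA-MB-468 and 10.45 ± 0.459 and 3.32 ± 0.108 in ZR75-1. ADM (adrenomedullin) was 7.195 ± 0.41 and 3.665 ± 0.345 FPKM in MDA-MB-468 and 3.18 ± 0.479 and 1.185 ± 0.153 in ZR75-1. The correlations are descriptive: the samples share the lines and the agent, and these genes were picked for their likeness.

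Markers of cells that these cultures should lack were not all low, and their sum differed between agents. The sum of 9 such markers was between 11.99 and 13.85 FPKM in DMSO and between 16.3 and 17.2 in PKC412 in MDA-MB-468, and between 7.795 and 9.21 against 16.2 and 18.8 in ZR75-1. The highest single value, 14.7 FPKM, was CD68, and COL1A1 reached 11.1 FPKM in PKC412-treated ZR75-1 cells, whereas PTPRC, the pan-leukocyte marker, was at or under 0.0651 FPKM in all samples. The part of these sums in the differences above was not tested.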

How the data were processed

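Total RNA of 10 samples was sequenced by the authors (Illumina TruSeq libraries, HiSeq2000), and per the labels the submitters' processing notes name CASAVA 1.82, TopHat2 and hg19. The authors deposited FPKM values per gene symbol from an in-house pipeline, 1 table per sample with the same 23426 symbols. FPKM sums ran from 599228 to 835069 per sample. Values down to 2.19e-318 and the absence of single-read steps leave the depth unknown. According to the methods treatments were done in triplicate, whereas DMSO is represented by 2 samples in each line here. The labels give 1 μM, and figure legends of the study give a lower dose.

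Groups came from the labels. limma 3.58.1 (R 4.3.3) was run on log2(FPKM + 1) in 1 fit of 4 group means (6 residual degrees of freedom, eBayes with a trend) over the 16071 genes whose group mean exceeded 0.1 FPKM somewhere, with Benjamini-Hochberg adjustment at 0.05. The 3-fold mark is a ratio of mean FPKM without a pseudocount. The GC and length adjustment divided out polynomials of degree 3 fitted per sample within a line (GENCODE 29 on GRCh38, by symbol, 88.1% of symbols matched). Its build differs from that of the files, so coordinates refer to GRCh38 only. With 2 against 3 samples an exact permutation test cannot go below p = 0.1, and none was used. The script was tested on simulated data. The alternatives were other pseudocounts, filters and scalings, eBayes without the trend, each line alone, the replicate number as a block, and each sample left out. The limits of the pathway genes at the 3-fold mark and the motif shares over the printed stretches were added after the data had been seen. Python 3.11.15, pandas 2.3.3 and matplotlib 3.10.9 served for tables and figures. Named were all 10 genes, the pathway genes past a threshold or known as ligand or decoy of a member, the markers, and the 5 genes most like the member with the lowest p. Not every gene that this rule allows is named, some results are not reported here, and BIRC2, BIRC3 and the genes listed at the 3-fold mark were named after their values were seen. The genes and lists were chosen with earlier results of these data known.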

Additional observations from a re-analysis of the deposited data

Results flagged for a closer look

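TNFSF10 was higher in every PKC412 sample of MDA-MB-468 and lower in every PKC412 sample of ZR75-1 than in the DMSO samples of the same line, with mean FPKM of 5.825 and 9.78 in the former and 3.53 and 1.51 in the latter. The difference between the effects was 1.55 on the log2 scale (SE 0.35, limma adjusted p = 0.21), not past the threshold in the deposited values, and 1.21 (adjusted p = 0.045) with FPKM adjusted for GC content and length. Its cause was not tested. Groups of 2 and 3 samples are too small to look for outlying samples.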

How the results depend on the processing

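The number of the 10 genes past the limma threshold with PKC412 in MDA-MB-468 (1) was 0 with the replicate block, with the GC and length adjustment together with the block, and without DMSO replicate 1 or 2. In ZR75-1 (1) it was 0 with each line alone, with the replicate block and with adjustment and block, and 3 with the adjustment alone. For the difference of the effects (0) it was 1 with the adjustment. In MDA-MB-468 the adjustment left the number at 1, but the gene was TNFRSF10B in place of TNFRSF12A. Leaving out each sample gave 0 to 1 in MDA-MB-468, 1 to 1 in ZR75-1, 0 to 0 for the difference, 4 to 6 for the lines in DMSO (5) and 5 to 8 for the lines in PKC412 (8), with 5 without MDA-MB-468 PKC412 replicate 2. At the 3-fold mark the number in MDA-MB-468 (1) was 0 with a pseudocount of 1 and with a mean FPKM above 1, and 1 to 1 with samples left out. In ZR75-1 (0) it was 0 to 2, with 1 without DMSO replicate 1, 2 without DMSO replicate 2 and 1 without PKC412 replicate 3.

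Some directions turned. In MDA-MB-468 with PKC412 they were TNFRSF1A (-0.074) and FADD (-0.11) after median-ratio rescaling, CFLAR (-0.0065 with the adjustment, -0.0027 with adjustment and block) and FADD (-0.0093 without DMSO replicate 1, the range over samples left out reaching 0.098). In ZR75-1 it was CASP8 (-0.069 without DMSO replicate 1, up to 1.02 with another sample left out). Between the lines in DMSO they were FAS (0.0054 without MDA-MB-468 DMSO replicate 1, 0.072 without ZR75-1 DMSO replicate 2, down to -0.23) and CASP8 (-0.15 without ZR75-1 DMSO replicate 1, up to 0.94).

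The labels number the replicates, and only 2 numbers are shared by the agents of a line. Deviations of same-numbered samples correlated at -0.688 and -0.608 in MDA-MB-468 and at 0.123 and -0.627 in ZR75-1 over 7685 genes. The 2 DMSO samples of a line have mirrored deviations and GC slopes also differ between samples, so these values cannot decide pairing. The main fit treated the samples as unpaired. With the replicate block TNFRSF12A fell by 1.08 (adjusted p = 0.68) and 1.39 (adjusted p = 0.64), and no gene at all was called for PKC412 in either line. Over the other settings the calls over all genes ran from 0 to 589 in MDA-MB-468 and from 0 to 459 in ZR75-1. Unknown depth limits all values of low genes such as FAS. Except where stated, the causes were not tested.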

Other observations

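The genes of necroptosis and the second initiator caspase differed between the lines. Of all genes tested, 42.4% passed the limma threshold between the lines in DMSO and 58.6% in PKC412. RIPK3, the kinase that starts necroptosis, was listed at 0 in all 5 MDA-MB-468 samples and was 0.707 and 0.952 FPKM in DMSO and 1.175, 1.22 and 1.09 in PKC412 in ZR75-1. MLKL, its target at the membrane, was higher in MDA-MB-468, at 4.68 and 4.28 FPKM in DMSO against 2.05 and 1.95 in ZR75-1 (log2 difference 0.87, limma adjusted p = 0.019), although this call was lost without any 1 of the 4 DMSO samples (adjusted p from 0.063 to 0.0905). In PKC412 MLKL was 5.08, 5.18 and 5.08 FPKM against 2.30, 1.24 and 2.80 (1.01, limma adjusted p = 0.0026). CASP10, a relative of caspase-8, was 2.33 and 2.84 FPKM in MDA-MB-468 and 0.499 and 0.841 FPKM in ZR75-1 in DMSO (log2 difference 1.11, adjusted p = 0.0028). In PKC412 CASP10 was 5.10, 3.83 and 5.002 against 0.616, 0.467 and 0.938 FPKM (1.755, adjusted p = 4.6e-05). BID, listed with these genes, did not pass the threshold between the lines (limma adjusted p = 0.21 in DMSO and 0.14 in PKC412).

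FAF1 and DAXX, which bind the FAS receptor, were also higher in MDA-MB-468, although FAS was under 1 FPKM in all samples. FAF1 was 62.5 and 60.5 FPKM in DMSO against 15.85 and 18.0 in ZR75-1, and DAXX was 30.7 and 33.2 against 11.2 and 12.2, with log2 differences of 1.80 and 1.37 (adjusted p = 0.00019 and 3.2e-05).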
